A study of Mus musculus with 2 samples.

Results

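The peaks described here lie at the cluster of type 2 cytokine genes on mouse chromosome 11 and at the nearby genes Csf2 and Il3. They come from 1 list of regions bound by Runx3, a Runt-domain transcription factor of lymphocytes, in natural killer (NK) cells. Peaks were chosen by position alone, in coordinates of the mm9 genome build. A peak belonged to the set if its midpoint fell between 53300000 and 53620000, the stretch given for Il4, Il13, Rad50, Il5 and Irf1 and called the type 2 cytokine window below, or between 54020000 and 54110000, given for Csf2 and Il3. The first window held 10 peaks and the second 4, so that 14 of the 19647 peaks of the list (0.0713%) and of the 1662 on chromosome 11 (0.842%) are members. The windows together measured 410 kb, which was 0.346% of the span of the peaks on chromosome 11.

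Both libraries of the study were chromatin immunoprecipitation sequencing (ChIP-seq) libraries from spleen NK cells of ICR mice. ICR is an outbred stock, whereas mm9 is the genome of another strain, C57BL/6J. All animals had received 2 injections of IL-15 complexed to its receptor alpha chain, separated by 2 days. IL-15 is the cytokine on which NK cells depend for survival and expansion, and both libraries come from mice treated with it. The 40000000 cells were enriched by negative selection, sorted for the NK receptor NKp46, fixed and frozen. A polyclonal in-house antibody to Runx3 was used for 1 library and non-immune rabbit serum for the other, each without a replicate. The sources used here state neither the age and sex of the mice nor the number pooled. The deposited list gives positions only, with no score, height or read count. Read depth is therefore unknown, identity of the cells could not be checked against marker expression, and the peaks cannot be ranked by strength.

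The genes of this neighbourhood carry much of the signalling of type 2 immunity. Il4 and Il13 encode cytokines that drive antibody class switching, mucus production and alternative macrophage activation, and Il5 encodes the main growth factor of eosinophils. Rad50 encodes a subunit of the DNA double-strand break repair complex, and its introns hold the locus control region through which the cytokine genes are regulated in type 2 helper T cells. Irf1 encodes an interferon-induced transcription factor. Csf2 encodes the growth factor GM-CSF, which NK cells can secrete on activation, and Il3 a growth factor of mast cells, basophils and blood progenitors. In type 1 T cells Runx3 acts with T-bet to silence Il4 through an element downstream of the gene.

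In the RefSeq gene table of the GRCm38 assembly, the protein-coding genes run in the order Septin8, Kif3a, Il4, Il13, Rad50, Il5, Irf1, Slc22a5, Slc22a21, Slc22a4, Pdlim4, P4ha2, Csf2, Il3 and Acsl6. Septin8 encodes a filament-forming septin and Kif3a a kinesin motor subunit, and the Slc22a genes encode organic cation and carnitine transporters. Pdlim4 encodes an actin-associated protein, P4ha2 a collagen prolyl hydroxylase and Acsl6 a fatty acid-CoA ligase. This table is of a later build than the peaks, so it gave names and order only, and no peak was placed relative to a gene, exon or promoter. Which gene a given peak lies nearest was not analysed here.

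RefSeq promoter windows were available for 6 of the 7 genes (Il4, Il13, Il5, Irf1, Csf2 and Il3), and the 250 bases before the start of each gene were searched for letters that Runt-domain proteins recognise. The hexamers TGTGGT and TGCGGT were sought on both strands, and 2 of the 6 genes, Il13 and Il3, held one in the window at their outermost start. Among all 32851 promoter windows of the table, 18.6% did, and 20.9% of the 27025 genes held one in any of their windows. The windows of Il4, Il13, Csf2 and Il3 are shown because they are the cytokine genes at the ends of the cluster, with and without the hexamer. Capitals mark the RUNX hexamer, and each sequence reads 5′ to 3′ on the strand of its gene, which is the minus strand for all 4.
Il4, GRCm38.p6 chr11:53618666-53618915, minus strand: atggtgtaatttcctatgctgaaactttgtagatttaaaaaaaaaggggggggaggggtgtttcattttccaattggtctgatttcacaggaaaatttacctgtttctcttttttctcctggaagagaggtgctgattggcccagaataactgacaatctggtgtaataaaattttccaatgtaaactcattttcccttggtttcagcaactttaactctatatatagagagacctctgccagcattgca
Il13, GRCm38.p6 chr11:53634703-53634952, minus strand: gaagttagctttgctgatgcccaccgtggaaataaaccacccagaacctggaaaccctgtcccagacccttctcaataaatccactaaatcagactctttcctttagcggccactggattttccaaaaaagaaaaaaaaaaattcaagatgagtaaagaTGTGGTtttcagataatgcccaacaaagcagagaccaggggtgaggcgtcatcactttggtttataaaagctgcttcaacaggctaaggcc
Csf2, GRCm38.p6 chr11:54249900-54250149, minus strand: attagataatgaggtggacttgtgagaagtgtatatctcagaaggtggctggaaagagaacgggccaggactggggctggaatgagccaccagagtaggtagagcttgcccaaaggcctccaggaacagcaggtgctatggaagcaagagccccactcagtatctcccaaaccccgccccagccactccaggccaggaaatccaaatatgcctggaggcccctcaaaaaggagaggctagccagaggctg
Il3, GRCm38.p6 chr11:54267280-54267529, minus strand: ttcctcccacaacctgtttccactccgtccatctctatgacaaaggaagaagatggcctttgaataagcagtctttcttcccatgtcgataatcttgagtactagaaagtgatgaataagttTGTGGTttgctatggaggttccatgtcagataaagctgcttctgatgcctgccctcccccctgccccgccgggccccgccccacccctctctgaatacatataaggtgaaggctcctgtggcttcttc

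These promoter positions belong to GRCm38 and cannot be set against the mm9 positions of the peaks. In Il13 the hexamer TGTGGT began at base 160 of the 250, and in Il3 at base 123, both on the strand of the gene. In both promoters the GATA hexamer AGATAA followed it, at base 170 in Il13 and at base 150 in Il3. How many of all promoters hold both hexamers, or hold them in this order, was not counted. AGATAA or TGATAA, which GATA factors recognise, occurred in 3 of the 6 genes (Il13, Il3 and Csf2) and in 16.6% of all promoter windows. Counted by gene, the share was 18.8%. The T-box core AGGTGT, the letters read by factors such as T-bet, occurred in 1 of the 6 genes, Il5, at base 170. It was present in 11.8% of all windows and 13.6% of all genes. Neither the Il4 nor the Irf1 window held any of these letters. The matches overlap no other match and describe the reference sequence only; no peak was shown to cover them.

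The type 2 cytokine window held its 10 peaks unevenly: 4 peaks were scattered over the left and middle, and 6 crowded at the right end. The name of the window does not tie these peaks to a cytokine gene. In the gene order above, Il4 comes first and Irf1 last among the genes given for it. The first peak, from 53380627 to 53381316, was 690 bp wide and stood alone, 42.4 kb from the next by midpoints. The second, 546 bp wide, ran from 53423055 to 53423600, and the third, 475 bp wide, from 53438712 to 53439186. Their midpoints were 15.6 kb apart, and no other peak lay within 10 kb of either. After the third peak came the longest stretch without a peak inside the window, 110 kb from 53439187 to 53549051. Gaps of this length or more made up 12.3% of the 1661 gaps on chromosome 11. The fourth peak, from 53549052 to 53549516, was with 465 bp the narrowest of the window.

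The remaining 6 peaks of this window fell within 43.0 kb. A peak of 965 bp ran from 53576841 to 53577805, and after a gap of 5308 bp followed the widest member, 1434 bp from 53583114 to 53584547. Of all peaks on chromosome 11, 1.93% were at least as wide. The next peaks measured 1122 bp (53599497 to 53600618) and 1244 bp (53608066 to 53609309). The window ended with peaks of 821 bp (53616583 to 53617403) and 575 bp (53619247 to 53619821), whose midpoints were 2.54 kb apart, the closest pair among the 10. The 5 peaks in a row from the one of 965 bp to the one of 821 bp were each wider than every one of the 4 peaks to their left. The last peak, of 575 bp, was narrower than the first of the window. This run was picked after the widths were seen.

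**Figure D1:**
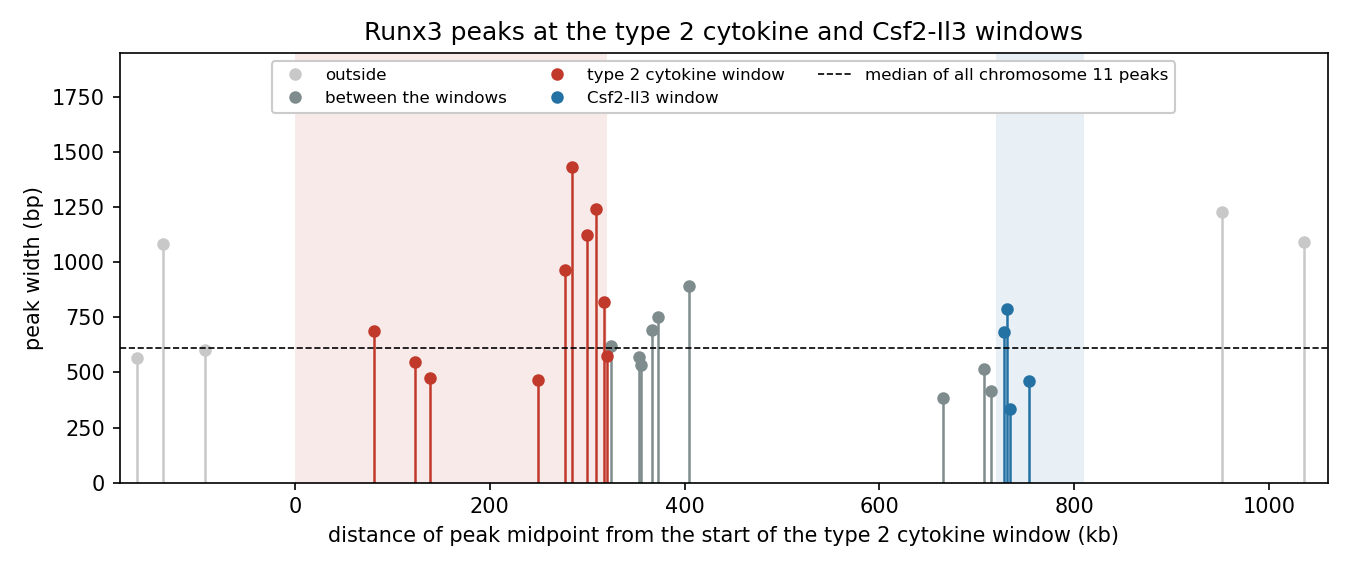
Each line is 1 Runx3 peak, placed by the distance of its midpoint from the start of the type 2 cytokine window (kb) and drawn to the height of its width (bp); shading marks the windows and the dashed line the median width on chromosome 11, 613 bp. The tallest red lines, up to 1434 bp, stand together at the right end of the type 2 cytokine window, and the Csf2-Il3 window holds 4 lines near its left end.

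The median width of the 10 peaks was 756 bp, with a range of 465 to 1434 bp, against a median of 613 bp on chromosome 11 (interquartile range 512 to 786 bp) and 604 bp in the whole list. The first 4 peaks had a median of 510 bp and the last 6 a median of 1044 bp; this division was made after the widths were seen. Of the 10, 3 were wider than 1000 bp, whereas 11.0% of the chromosome's peaks were. In tiles of the same length along chromosome 11, 16 of 370 (4.32%) held 3 or more peaks of that width. The 370 include 125 tiles without a peak, and the share among tiles with 10 or more peaks was not computed. Among the 155 of these tiles with at least 4 peaks, 15, the type 2 cytokine window included, had a median width of 756 bp or more. What sets the width of a peak was not tested, and without heights a wide peak cannot be told apart from several adjoining ones.

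The 4 peaks of the Csf2-Il3 window lay in its left part. The first 3 formed a tight group of 6.41 kb, with peaks of 683 bp (54027759 to 54028441), 786 bp (54030797 to 54031582) and 334 bp (54033832 to 54034165). Their midpoints were 3.09 and 2.81 kb apart. The third was the narrowest of all 14 members, and 0.963% of chromosome 11 peaks were as narrow or narrower. The fourth, 462 bp from 54053372 to 54053833, followed at 19.6 kb. The median width was 572 bp, and none of the 4 exceeded 1000 bp. Beyond the fourth peak the list was empty for 197 kb, to 54251260, a length reached by 6.20% of the gaps on the chromosome.

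**Figure D2:**
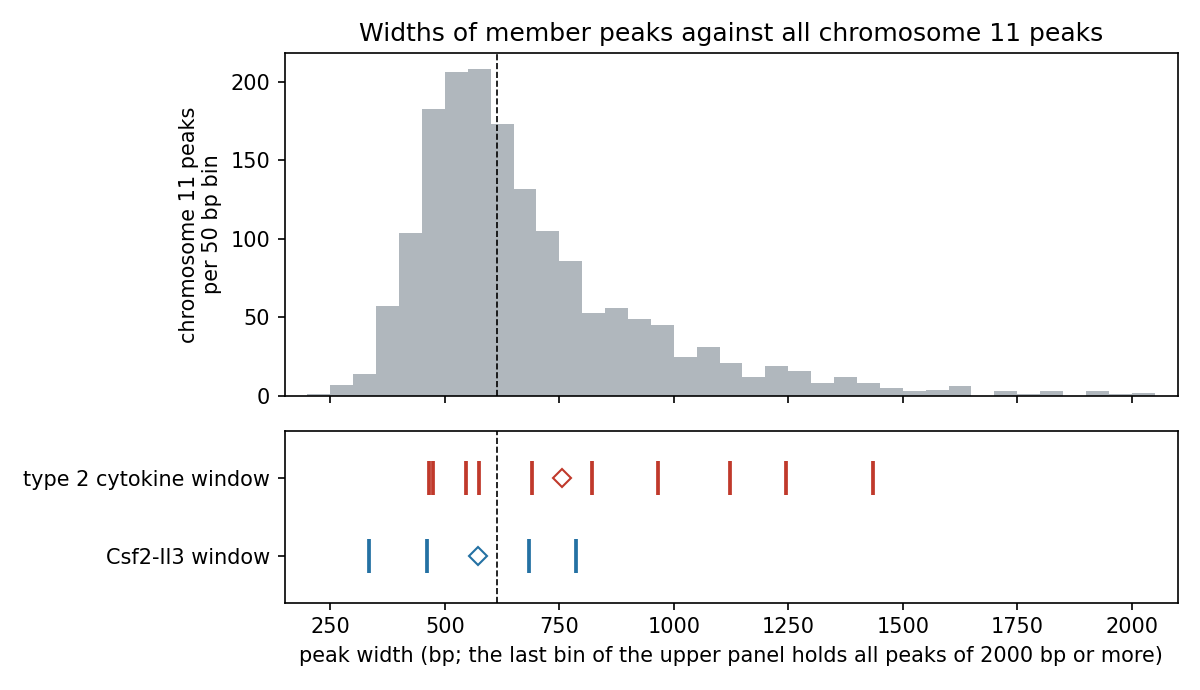
The upper panel counts all 1662 chromosome 11 peaks by width in bins of 50 bp, and the lower panel shows each member peak as a tick and the median of each window as a diamond; the dashed line is the chromosome median, 613 bp. Ticks of the type 2 cytokine window reach from 465 to 1434 bp and those of the Csf2-Il3 window from 334 to 786 bp, so the ranges overlap.

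Spacing within the windows ranged from 2.54 kb to 110 kb. In the type 2 cytokine window the median of the 9 distances between neighbouring midpoints was 15.6 kb, and on chromosome 11 it was 17.9 kb. With the window edges moved in by 20 kb, which left 6 peaks, it was 28.0 kb, so the order of window and chromosome depends on where the edge is set. Of the 9 distances in the full window, 4 were at most 10 kb, as were 2 of the 3 in the Csf2-Il3 window. The share over the chromosome was 37.1%. A distance inside a window cannot exceed the window's length, whereas 13.2% of the chromosome's 1661 distances were over 100 kb. Short distances are thus favoured in the windows by construction, for this share and for the median. Of 370 chromosome 11 tiles of 320 kb, 61 held 4 or more distances of at most 10 kb. Of 1317 tiles of 90 kb, 132 held 2 or more. The counts in the windows rest on 9 and 3 distances and were not tested. After chaining of peaks whose midpoints were 10 kb or less from the next, the right end of the type 2 cytokine window gave a pair of 7.71 kb (53576841 to 53584547) and a chain of 5 peaks in 24.7 kb (53599497 to 53624229). Chromosome 11 held 27 chains of 5 or more peaks among 355 of at least 2. Chains of 5 or more held 11.1% of the chromosome's peaks, and 41.6% of its peaks stood alone.

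The edge of the window cut that chain. Its last member, a peak of 620 bp from 53623610 to 53624229, had its midpoint 3.92 kb beyond the window, while the last peak counted inside lay 0.467 kb before the edge. On the left side, the nearest peak outside, 600 bp wide, ended at 53207866, and 173 kb without a peak separated it from the first member. For the Csf2-Il3 window, the nearest peak outside on the left, 416 bp from 54014957 to 54015372, lay 4.84 kb before the edge, and the first peak inside lay 8.10 kb after it.

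Between the windows, over 400 kb, the list held 9 peaks of 386 to 892 bp. The first 6, from 53623610 to 53705476, continued the crowded end of the type 2 cytokine window, and the last 3, from 53964683 to 54015372, led up to the Csf2-Il3 window. They were separated by 259 kb without a peak, the longest empty stretch between the first and the last member. From the right end of the type 2 cytokine window onwards, the region thus showed a crowded part, an empty part and a second, smaller group. With the 4 scattered peaks to the left of the crowded part, it held 23 peaks in 810 kb in all. Their density was 28.4 per Mb (exact 95% Poisson interval 18.0 to 42.6), which was 2.03 times the 14.0 per Mb of chromosome 11. The interval assumes independent peaks. Tiles of this length were more uneven than that, with 17.8% empty at a mean of 11.3 peaks, so it understates the spread. Of 146 tiles of 810 kb on the chromosome, 16.4% held 23 or more peaks.

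Against equal windows on chromosome 11, the type 2 cytokine window was well filled but not at the extreme. Its density was 31.2 peaks per Mb (exact 95% Poisson interval 15 to 57.5), 2.23 times that of the chromosome. Tiles of 320 kb along the chromosome, laid so that the window was 1 of them, numbered 370 and held 0 to 25 peaks, with a median of 2. As many peaks or more were present in 67 of the tiles (18.1%): 52 held more, and 15, this window included, held exactly 10. No peak was present in 125 tiles (33.8%). Its peaks covered 8337 bp, or 2.61% of the window, and 39 tiles (10.5%) had as many bases or more in peaks. The equal windows directly before and after it held 6 peaks each, with a Poisson interval of 2.20 to 13.1. The interval for the 10 was 4.80 to 18.4. Whether these counts differ was not tested, and the overlap of the intervals does not decide it.

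The Csf2-Il3 window held 44.4 peaks per Mb, 3.17 times the chromosome, but on 4 peaks (exact 95% Poisson interval 1.09 to 10.2 peaks, or 12.1 to 114 per Mb). Of 1317 tiles of 90 kb, 167 (12.7%) held 4 or more, 743 (56.4%) held none, and the fullest held 15. The equal window before it held 3 peaks and the one after it 0, with an upper limit of 3.69. Compared with tiles on all chromosomes, 6.64% held at least as many peaks as the type 2 cytokine window and 5.66% at least as many as the Csf2-Il3 window. Counting only chromosome 11 tiles with at least 1 peak, the shares were 27.3% and 29.1%. With the window edges moved in by 20 kb, 6 and 1 peaks were left, and the shares were 30.3% and 33.4%. Chromosome 11 was the more densely occupied reference, with 14.0 peaks per Mb against 7.69 in the whole list. The number of genes and regulatory elements per tile was not compared, so its part in these ranks was not tested. The intervals cover counting error only and assume that peaks fall independently of each other. Tile counts were more uneven than that: 33.8% of the 320 kb tiles were empty at a mean of 4.47 peaks. The intervals therefore understate the spread, and an interval that leaves out the chromosome's density is no test of enrichment.

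**Figure D3:**
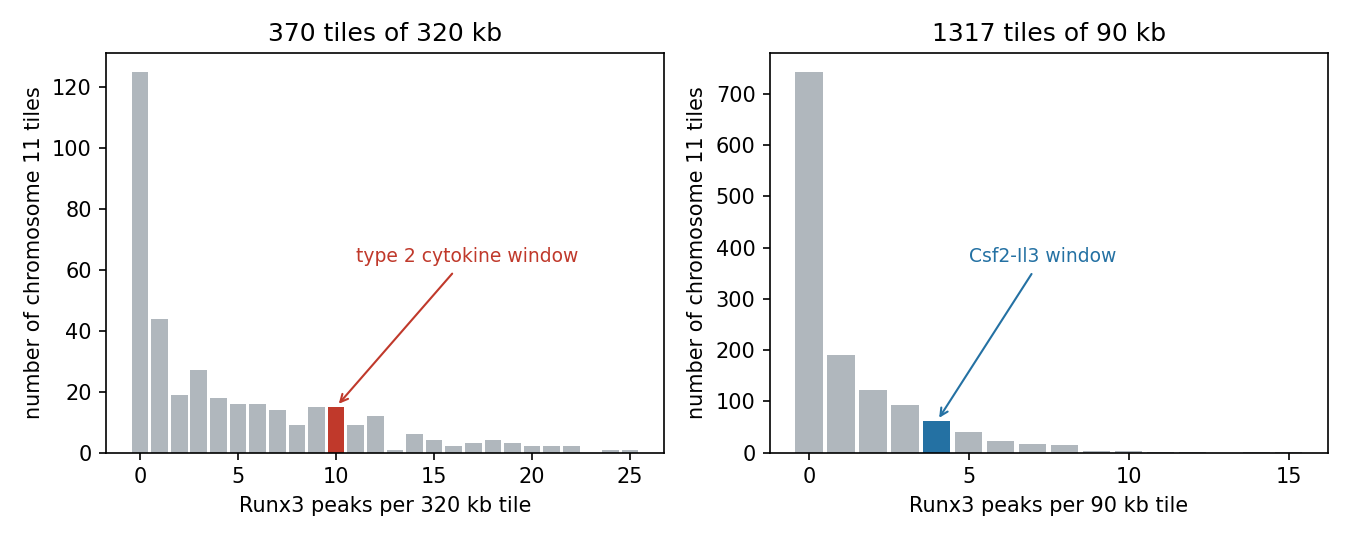
Bars count the chromosome 11 tiles (vertical axis) that hold each number of Runx3 peaks (horizontal axis), for 370 tiles of 320 kb on the left and 1317 tiles of 90 kb on the right; the coloured bar is the one that contains the named window. The type 2 cytokine window has 10 peaks and the Csf2-Il3 window 4, each to the right of most tiles, with tiles of up to 25 and 15 peaks beyond them.

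Within the type 2 cytokine window, segments of 40 kb brought out the uneven filling. From left to right the 8 segments held 0, 0, 1, 2, 0, 0, 2 and 5 peaks. The last one, from 53580000 to 53620000, with 5 peaks and a median width of 1122 bp, was reached or exceeded in number by 46 of 2965 tiles of that length on the chromosome (1.55%). The segment was picked as the fullest of 8 after the counts were seen, so this share describes it and is no test. The segments with 2 peaks were matched or exceeded by 14.1% of tiles, and the segment with 1 by 29.2%.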

How the data were processed

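The data are 1 deposited list of Runx3 peaks from 1 ChIP-seq library of mouse spleen NK cells; values of the non-immune serum library were not used here. Per the labels' protocols, chromatin was fixed in 1% formaldehyde, sheared to about 200 bp and read as 50 bp sequences, which ELAND aligned. The submitters' processing notes name CASAVA 1.8.2 and mm9. No source used here states the caller, its threshold or the use of the control library, and the name under which the list was deposited contains the words "to small", so it may not be the full set of calls. The deposited values are positions in base pairs, with starts counted from 0 and printed here from 1.

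Widths, midpoint distances, chains (10 kb) and counts per tile were computed with Python 3.11.15, numpy 2.4.6, pandas 2.3.3 and scipy 1.17.1. Complete, non-overlapping tiles between the first and last peak of chromosome 11 were laid with a tile on the window itself. Tile counting was tested on simulated data and recovered all counts in 20 of 20 lists of 200 tiles. No simulated peak crossed a tile edge, so the counting of peaks at an edge was not tested. Intervals on counts are exact 95% Poisson intervals. No test was made, because 1 library per antibody gives no replicate and the members were chosen by position. Members, windows and gene lists were chosen with earlier results of these data known. All 14 peaks and all 7 genes are named; motif letters were sought in RefSeq promoters (GRCm38.p6) of Il4, Il13, Il5, Irf1, Csf2 and Il3. Alternatives changed the peaks, the window edges, the tiling or the motif.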

Additional observations from a re-analysis of the deposited data

How the results depend on the processing

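Of 46 recomputed values, 31 stayed near the reported one. Counts had to stay within 1.5 times, and shares within their exact 95% binomial interval. That interval was 14.3 to 22.4% for the type 2 cytokine window and 10.9 to 14.6% for the Csf2-Il3 window. Medians had to stay within the exact binomial interval of the median or, for the 4 peaks of the Csf2-Il3 window, within their range. The tiles are all complete tiles of chromosome 11 and not independent draws. The interval of a share is therefore a tolerance only and measures no spread. It is narrower where tiles are more numerous. Restricting the list to its wider part, from the median width upwards, left 6 peaks in the type 2 cytokine window, 2 in the Csf2-Il3 window and 4 between them by construction, and 16.9% of tiles then held as many as the Csf2-Il3 window. Moving the window edges in by 20 kb left 6 and 1 peaks, because 4 peaks lie within 20 kb of the right edge of the first window and 3 within 20 kb of the left edge of the second; the shares of tiles became 30.3% and 33.4%. The median spacing in the first window then rose from 15.6 to 28.0 kb, from below to above the 17.9 kb of the chromosome; it is counted among the 31 because the interval of the median on 9 distances is wide. Moving them out by 20 kb gave 9.98% for the Csf2-Il3 window. Joining gaps of up to 1000 bp, which joined no member, gave 14.1% and 10.8%. No gap inside or between the windows was that short, so joining could not change their counts, widths or spacings. Those values are among the 31 by construction. So is the Csf2-Il3 median width with edges moved in, which is 1 of the same 4 peaks judged against their own range. Counting only tiles with at least 1 peak gave 27.3% and 29.1%, and tiles on all chromosomes gave 6.64% and 5.66%, since the set of tiles differs by construction. No paired analysis was possible because only 1 Runx3 library exists here. Positions alone give no depth, so how many weaker sites escaped the calling is unknown.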
